A study of Mus musculus with 4 samples.

Results

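The aryl hydrocarbon receptor pathway was followed through 7 genes in right-ventricle RNA of 4 adult mice. They are the receptor gene Ahr, its partner gene Arnt, the feedback inhibitor genes Ahrr and Tiparp, and the target enzyme genes Cyp1a1, Cyp1b1 and Nqo1. Each was taken as the row of that name in the deposited read table, so 7 of 29595 rows were used, and all 7 were present. The genes were chosen by the read counts of this same comparison of mutant with wild-type hearts, which were known when they were proposed. Their differences between the groups are therefore given as descriptions, and nothing is read from the tests that include them. The hearts were 2 Ezh2-deficient mutants (mutant 1 and mutant 3) and 2 wild types (wild type 1 and wild type 2), all on a mixed C57BL/6 background. Ezh2 is the histone methyltransferase subunit of Polycomb repressive complex 2, which marks genes for silencing. The labels give neither the Ezh2 allele, nor the cells in which it was lost, nor the age beyond adult.

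The receptor is a ligand-activated transcription factor of the basic helix-loop-helix PAS family. It waits in the cytosol with Hsp90, and binds dioxins, polycyclic aromatic hydrocarbons and tryptophan derivatives. On binding it enters the nucleus, pairs with Arnt and occupies xenobiotic response elements (XREs), whose core is GCGTG. Cyp1a1 is the classic induced gene and is very low in most tissues without a ligand, while Ahrr and Tiparp are induced and then restrain the receptor. In the heart the receptor is known from endothelial and other vascular cells and from cardiomyocytes, and mice without it develop enlarged hearts.

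The XRE core stood near the start site of most of these genes. RefSeq windows of 300 bases (250 before the start site and 50 from it on, build GRCm38.p6) were found for 6 of the 7, Ahr being the other. The 5 windows of the induced genes are shown because these are the genes through which receptor activity is usually read. They run 5′ to 3′ on the gene's strand, with capitals marking GCGTG or, for a core on the other strand, CACGC.
Cyp1a1 (chr9:57697363-57697662, plus strand): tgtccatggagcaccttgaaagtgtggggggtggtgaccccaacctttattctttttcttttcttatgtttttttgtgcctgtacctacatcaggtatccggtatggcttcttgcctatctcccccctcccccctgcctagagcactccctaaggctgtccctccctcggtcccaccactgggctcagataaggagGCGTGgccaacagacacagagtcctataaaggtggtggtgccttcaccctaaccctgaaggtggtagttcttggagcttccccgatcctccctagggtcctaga
Cyp1b1 (chr17:79715012-79715311, minus strand): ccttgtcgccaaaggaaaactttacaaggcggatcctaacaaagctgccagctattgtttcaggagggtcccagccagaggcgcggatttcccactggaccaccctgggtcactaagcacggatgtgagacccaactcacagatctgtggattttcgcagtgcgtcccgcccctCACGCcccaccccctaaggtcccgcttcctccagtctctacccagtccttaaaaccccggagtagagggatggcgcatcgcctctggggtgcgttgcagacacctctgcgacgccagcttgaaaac
Nqo1 (chr8:107403156-107403455, minus strand): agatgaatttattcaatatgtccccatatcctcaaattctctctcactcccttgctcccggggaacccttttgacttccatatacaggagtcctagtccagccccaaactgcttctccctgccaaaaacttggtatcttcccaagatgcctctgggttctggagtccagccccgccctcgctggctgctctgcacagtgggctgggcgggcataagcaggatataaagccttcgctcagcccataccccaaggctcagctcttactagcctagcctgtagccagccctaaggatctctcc
Ahrr (chr13:74292282-74292581, minus strand): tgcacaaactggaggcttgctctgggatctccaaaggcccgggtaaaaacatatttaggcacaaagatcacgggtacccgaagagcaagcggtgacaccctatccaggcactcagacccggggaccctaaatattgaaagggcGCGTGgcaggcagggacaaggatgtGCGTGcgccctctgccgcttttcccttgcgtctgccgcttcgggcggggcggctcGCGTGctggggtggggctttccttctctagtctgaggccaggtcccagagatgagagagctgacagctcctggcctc
Tiparp (chr3:65528197-65528496, plus strand): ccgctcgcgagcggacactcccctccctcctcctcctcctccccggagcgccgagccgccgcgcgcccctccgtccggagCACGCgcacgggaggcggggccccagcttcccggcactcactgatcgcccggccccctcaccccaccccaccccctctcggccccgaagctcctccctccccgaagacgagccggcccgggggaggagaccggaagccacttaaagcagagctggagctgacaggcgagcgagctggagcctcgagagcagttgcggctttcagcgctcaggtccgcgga

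Ahrr held 3 XRE cores, while Cyp1a1, Cyp1b1, Tiparp and Arnt held 1 each and Nqo1 held none. On either strand, 32.4% of 32851 windows of this length hold at least 1 core and 3.91% hold at least 3. The longer form TNGCGTG, which contains the core, was found once among the 6 windows, in Ahrr, and stands in 5.07% of all windows. The letters TATAAA of the promoter element that places the start site stood in the Cyp1a1 and Nqo1 windows and stand in 13.6% of all windows, both strands searched. The antioxidant response element core TGACNNNGC, the site of the stress factor Nrf2, matched 2 times in the Arnt window and in none of the other 5, against 12.4% of all windows with a match. The Cyp1a1 window had 4 CpG dinucleotides and the Nqo1 window 5, below the median of 7.0 over all windows, while the Tiparp, Arnt, Ahrr and Cyp1b1 windows had 34, 19, 17 and 16. The Cyp1a1 window belongs to a start site 9685 bases inside the RefSeq gene span, whose length of 15897 bases is close to the 15894 bases of the deposited row. A match is a run of letters and not a measured binding site.

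**Figure D1:**
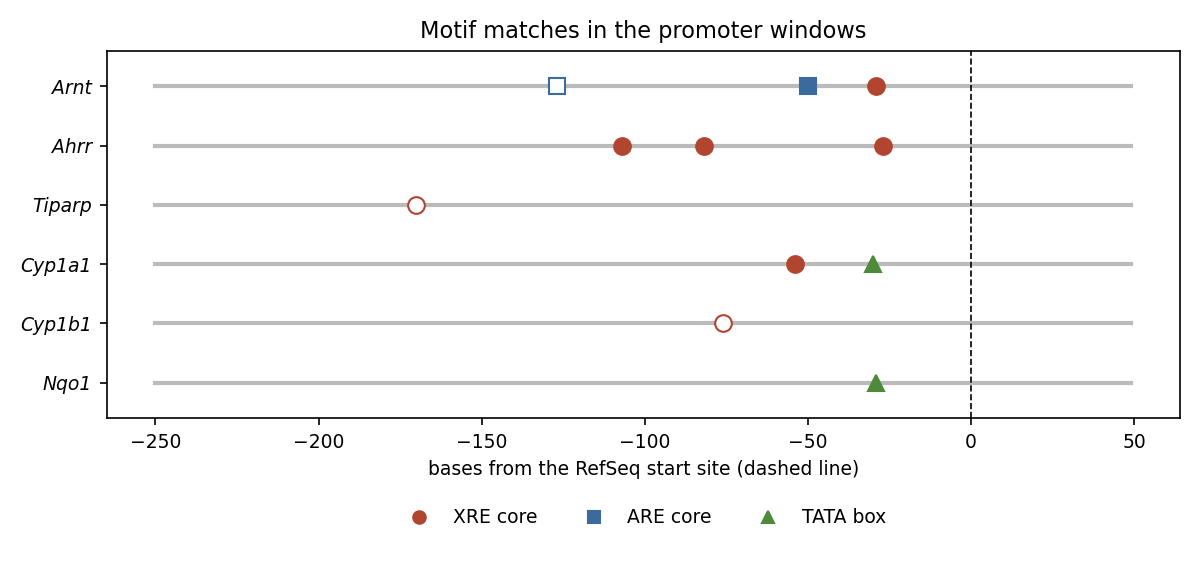
Position of motif matches in the 300-base windows of 6 genes, in bases from the RefSeq start site (horizontal axis). Filled symbols are matches on the gene's own strand and open symbols on the other strand; Ahrr has 3 XRE cores (circles) and Nqo1 has none.

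The libraries held 21707784 and 23853394 reads in mutants 1 and 3, and 20093783 and 18177642 reads in wild types 1 and 2. Levels are CPM, reads scaled to library size, after adjustment by the trimmed mean of M-values (TMM), as mean ± SD with n = 2 per group. Ezh2 itself had 73 and 70 reads in the mutant hearts and 77 and 67 in the wild-type hearts, at 3.48 ± 0.101 CPM in the mutant hearts and 3.40 ± 0.0409 CPM in the wild-type hearts, so its row does not tell the groups apart. The part of the gene that was deleted is not given in the labels. Reads of the Y-linked gene Ddx3y numbered 754 and 659 in the mutant hearts and 2 and 2 in the wild-type hearts. Xist, the X-inactivation RNA, had 64 and 17 reads in the mutant hearts and 638 and 3227 in the wild-type hearts, so sex and genotype cannot be told apart in any difference below. A nuclease step during library construction lowered abundant transcripts, so levels of different genes are not proportional to their RNA.

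The 3 target enzyme genes had more reads in both mutants than in either wild type, while the receptor, its partner and its inhibitors did not. The groups did not overlap for Cyp1a1, Cyp1b1 and Nqo1, which were higher in the mutant hearts, nor for Ahrr and Tiparp, which were lower. They overlapped for Ahr and Arnt. Over all 16128 rows tested, the groups did not overlap, with the mutants higher, in 22.3% and, with the mutants lower, in 22.4%, or 44.8% in either direction. All 7 passed the filter on low counts, Cyp1a1 through its mutant reads alone. No p-value is given for single genes of the 7. In edgeR's quasi-likelihood test over all rows, 0 of the 7 passed an adjusted p of 0.05, where 0.13% of all rows did. At an unadjusted p under 0.05 there were 3 higher and 0 lower, where 6.49% and 4.38% of all rows were. DESeq2 called 1 of the 7 (Cyp1a1) and 1.41% of all rows, and limma-voom called 0 of the 7 and 0.0868% of all rows. Of the 7, edgeR also called only Cyp1a1 with total counts alone, among 156 of 16128 rows. It did so too with no filter on low counts, among 317 of 21949 rows. Without wild type 1, edgeR called 3 (the 3 target enzyme genes) and 12.2% of all rows. Without wild type 2 it called 4 (the same 3 and Ahr) and 22% of all rows. Because this comparison chose the genes, nothing is read from these counts.

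**Figure D2:**
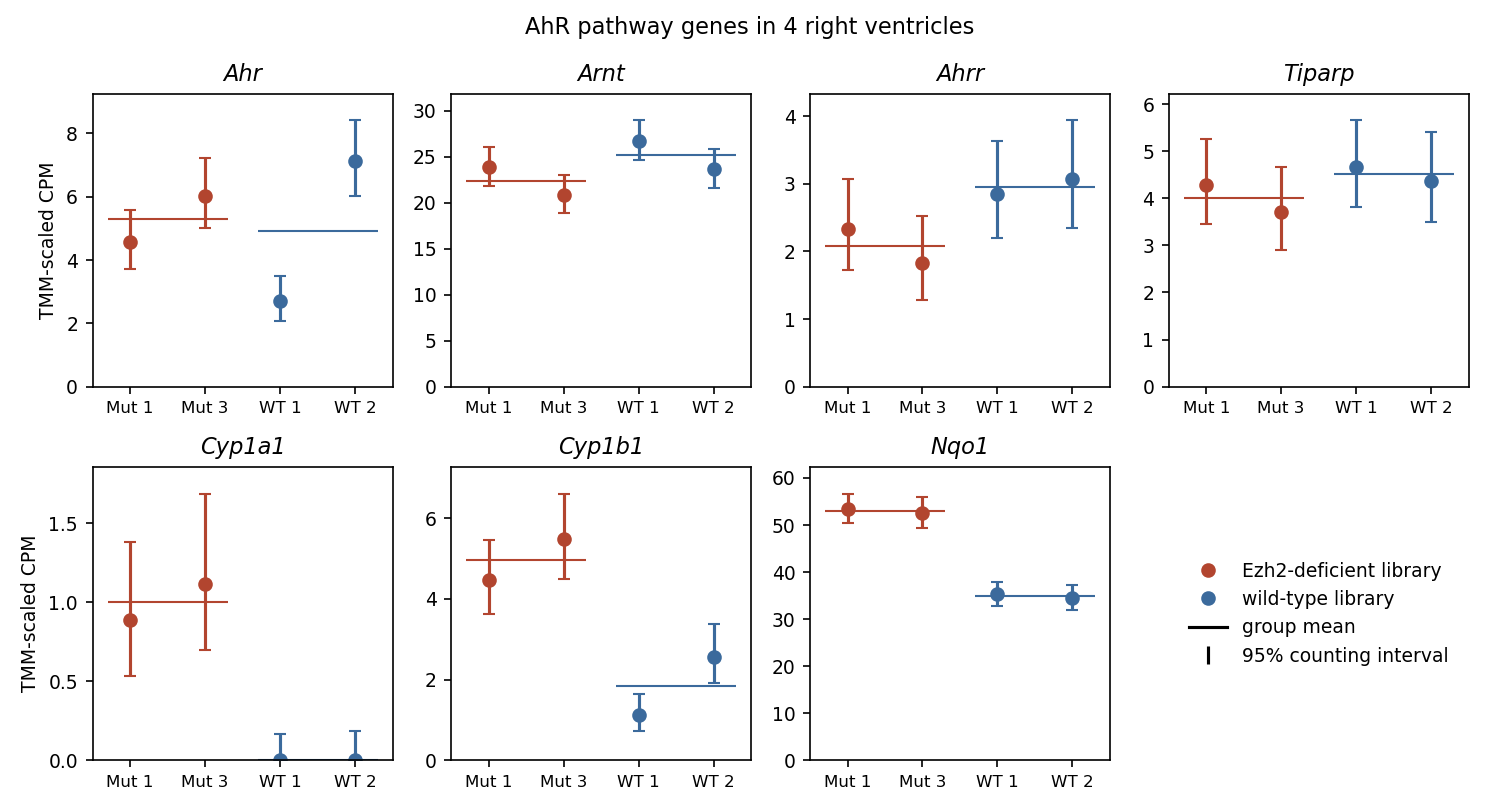
TMM-scaled CPM (vertical axes, each from 0) of the 7 genes in each library, with the group mean (line) and the 95% exact Poisson counting interval (bars). Both mutants lie above both wild types for Cyp1a1, Cyp1b1 and Nqo1, and the wild types stand far apart for Ahr, at 2.72 and 7.14 CPM.

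Ahr, the receptor gene (chromosome 12, 36182651 to 36219661, minus strand, mm9), had 98 and 119 reads in the mutant hearts and 61 and 142 in the wild-type hearts. That is 4.57 and 6.03 CPM in the mutant hearts against 2.72 and 7.14 CPM in the wild-type hearts. Both mutants lie between the wild types, so the groups overlap. The means were 5.30 ± 1.03 CPM in the mutant hearts and 4.93 ± 3.13 CPM in the wild-type hearts (SD, n = 2 each). The log2 fold change was 0.11 ± 0.45 (SE), and -0.19 when libraries were scaled by total counts alone. Wild type 1 over wild type 2 was 0.380, with a 95% counting interval of 0.277 to 0.517, and 8.51% of tested rows differed at least as much between these 2 libraries. The sign of the fold change also turned with single libraries. It was -0.43 without wild type 1, 0.96 without wild type 2 and -0.08 without mutant 3.

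Arnt encodes the partner with which the receptor binds DNA, and it also serves the hypoxia factors (chromosome 3, 95238350 to 95300210, plus strand). It had 512 and 412 reads in the mutant hearts and 601 and 470 in the wild-type hearts, or 23.9 and 20.9 CPM in the mutant hearts against 26.8 and 23.6 CPM in the wild-type hearts. Mutant 1 stood just above wild type 2, so the groups overlap. Means were 22.4 ± 2.12 CPM in the mutant hearts and 25.2 ± 2.20 CPM in the wild-type hearts, with a log2 fold change of -0.17 ± 0.22. A second row, mKIAA4051, lies wholly within the Arnt span on the same strand. It had 110 and 72 reads in the mutant hearts and 117 and 81 in the wild-type hearts, and may hold reads of Arnt.

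Ahrr, the receptor's repressor, which competes with it for Arnt (chromosome 13, 74348566 to 74429757, minus strand), had 50 and 36 reads in the mutant hearts and 64 and 61 in the wild-type hearts. Its levels were 2.33 and 1.83 CPM in the mutant hearts and 2.85 and 3.07 CPM in the wild-type hearts. Both mutants lie below both wild types, but the counting interval of mutant 1 (1.73 to 3.08 CPM) spans both wild-type values. The means were 2.08 ± 0.359 CPM in the mutant hearts and 2.96 ± 0.155 CPM in the wild-type hearts, and the log2 fold change was -0.51 ± 0.34. It was -0.31 without mutant 3. The window with 3 XRE cores thus belongs to a gene whose mean was 0.703 times the wild-type mean in the mutant hearts.

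Tiparp encodes a mono-ADP-ribosyltransferase that modifies the receptor and limits its activity (chromosome 3, 65332369 to 65359440, plus strand). Reads numbered 92 and 73 in the mutant hearts and 105 and 87 in the wild-type hearts, or 4.29 and 3.70 CPM in the mutant hearts against 4.68 and 4.38 CPM in the wild-type hearts. The gap between mutant 1 and wild type 2 was under 0.1 CPM, so the groups barely separate. Means were 4.00 ± 0.418 CPM in the mutant hearts and 4.53 ± 0.211 CPM in the wild-type hearts. The log2 fold change of -0.18 ± 0.29 was smaller than its SE, and it was -0.04 without mutant 3. A row on the other strand, AK016513, overlaps Tiparp by 933 bases and had 3 and 4 reads in the mutant hearts and 14 and 2 in the wild-type hearts.

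Cyp1a1, the monooxygenase gene on which receptor activity is usually read (chromosome 9, 57535735 to 57551628, plus strand), had 19 and 22 reads in the mutant hearts and 0 and 0 in the wild-type hearts. The mutants stood at 0.887 CPM (95% exact Poisson interval 0.534 to 1.38) and 1.12 CPM (0.699 to 1.69). A count of 0 allows up to 3 reads, which is 0.134 CPM in wild type 1 and 0.151 CPM in wild type 2. The transcript was thus read in both mutants and was not detectable at this depth in either wild type. Setting the wild-type group as a whole at 3 reads, the pooled mutant level was at least 14.1-fold higher. The lower counting limit of its 41 reads lies at 10.1-fold. Mutant 1 over mutant 3 was 0.795, with an interval of 0.407 to 1.54, so the mutants did not differ beyond counting error.

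This pattern was rare in the table. Only 5 of 29595 rows had no read in both wild types and at least 19 reads, the lower Cyp1a1 count, in each mutant. The 3 of them outside the sex chromosomes were Cyp1a1, Tchhl1 and the clone row AK016790. The reverse pattern, no read in both mutants and at least 19 in each wild type, was found in 0 rows. This threshold came from the Cyp1a1 values, so the count is a description. The adjoining rows did not share the pattern. Cyp1a2, the sister gene that is chiefly expressed in liver, had 0 reads in all 4 libraries. On the far side of it, Csk had 248 and 227 reads in the mutant hearts and 293 and 219 in the wild-type hearts. Downstream, Edc3 had 144 and 155 reads in the mutant hearts and 165 and 133 in the wild-type hearts.

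Cyp1b1, the family member that is active mainly outside the liver (chromosome 17, 80106234 to 80114381, minus strand), had 96 and 108 reads in the mutant hearts and 25 and 51 in the wild-type hearts. Levels were 4.48 and 5.48 CPM in the mutant hearts against 1.11 and 2.57 CPM in the wild-type hearts. Both mutants exceeded both wild types, and their counting intervals did not reach the wild-type intervals. The means were 4.98 ± 0.705 CPM in the mutant hearts and 1.84 ± 1.03 CPM in the wild-type hearts, 2.71 times as high in the mutant hearts (log2 fold change 1.44 ± 0.43). The size depended on the wild-type library, with 0.96 without wild type 1 and 2.15 without wild type 2. Wild type 1 over wild type 2 was 0.434, with an interval of 0.258 to 0.713, and 11.1% of tested rows differed at least as much. A clone row on the plus strand, AK006637 (80113925 to 80115776), overlaps the first 457 bases of Cyp1b1. It had 49 and 42 reads in the mutant hearts and 12 and 6 in the wild-type hearts. Whether counting used strand is not stated in the labels, so reads of this pair cannot be told apart.

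Nqo1, a quinone reductase gene that answers both to this receptor and to Nrf2 (chromosome 8, 109912125 to 109927105, minus strand), was the most deeply read of the 7. It had 1146 and 1037 reads in the mutant hearts and 792 and 685 in the wild-type hearts, or 53.5 and 52.6 CPM in the mutant hearts against 35.3 and 34.5 CPM in the wild-type hearts. Within each group the libraries agree within counting error. Mutant 1 over mutant 3 was 1.02 (0.934 to 1.11) and wild type 1 over wild type 2 was 1.02 (0.923 to 1.14). Between the same mutants 92.9% of tested rows differed at least as much, and between the same wild types 96.0% did. Nqo1 thus had a small spread for these libraries. The means of 53.0 ± 0.631 CPM in the mutant hearts and 34.9 ± 0.569 CPM in the wild-type hearts differ 1.52-fold (log2 fold change 0.60 ± 0.20). Scaling by total counts alone, which moves the median log2 fold change of all rows to -0.28, gave 0.32 for Nqo1.

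Per exonic length, Nqo1 was by far the highest of the 7 genes, and Cyp1a1 had the lowest median over the 4 libraries. The measure was RPKM, the TMM-scaled CPM divided by the exonic length in kilobases. Nqo1 stood at 34.1 ± 0.407 RPKM in the mutant hearts and 22.5 ± 0.366 in the wild-type hearts. Arnt came next at 2.80 ± 0.265 in the mutant hearts and 3.15 ± 0.275 in the wild-type hearts, below Nqo1 in each of the 4 libraries. Tiparp at 0.917 ± 0.0960 in the mutant hearts and 1.04 ± 0.0484 in the wild-type hearts did not differ in level from Ahr beyond the spread, which stood at 0.861 ± 0.168 in the mutant hearts and 0.800 ± 0.508 in the wild-type hearts. Cyp1b1 reached the range of Ahr in the mutant hearts, at 0.852 ± 0.121, and that of Ahrr in the wild-type hearts, at 0.315 ± 0.176. Ahrr itself was at 0.220 ± 0.0380 in the mutant hearts and 0.313 ± 0.0164 in the wild-type hearts. Cyp1a1, at 0.359 ± 0.0581 in the mutant hearts, was above Ahrr there and had no read in the wild-type hearts. Lengths were taken from a later annotation (GENCODE M21), and the nuclease step compresses differences between genes.

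**Figure D3:**
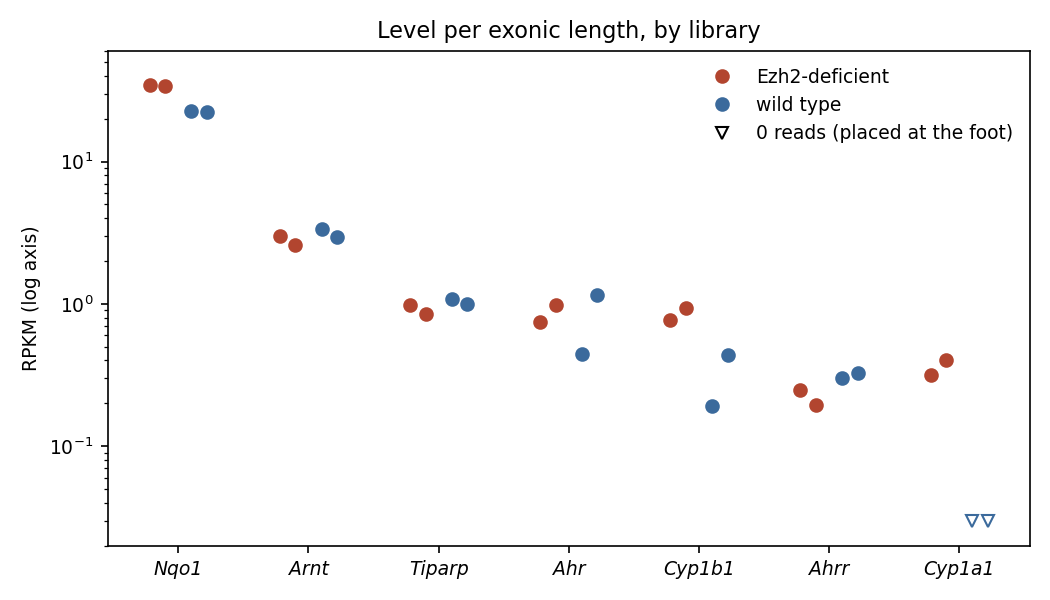
RPKM (vertical log axis) of the 7 genes in each library, in order of their median over the 4 libraries. Nqo1 stands between 22.2 and 34.4, and open triangles at the foot mark the wild-type libraries with 0 Cyp1a1 reads.

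Profiles most like that of Cyp1a1 are, by the measure used, bound to have far more reads in both mutants than in either wild type. Likeness was the Euclidean distance between log2(CPM + 0.1) profiles over the 4 libraries, each centred on its mean. It was taken among 10958 named rows outside the X and Y chromosomes with at least 1 CPM on average. Cyp1a1 itself lies below that level, so rows as low as it were left out. The nearest were Ankrd1, a stretch-responsive muscle gene (distance 0.430), Nlrc3 of the NOD-like receptor family (0.587) and Tbx15, a T-box factor gene (0.681), against a median distance of 3.49. Tbx15 had 71 and 49 reads in the mutant hearts and 5 and 6 in the wild-type hearts. The Cyp1a1 profile depends on the added 0.1 CPM, since its wild-type values are 0. For Cyp1b1 the nearest were Cep152, a centriole gene (0.124), Lrrc27 (0.166) and Nat2, an arylamine acetyltransferase gene (0.167), against a median of 1.79. Nat2 had 39 and 40 reads in the mutant hearts and 10 and 20 in the wild-type hearts. With 4 libraries, likeness says only that the values run alike.

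Of other genes known as receptor targets, none passed the test, and the smallest p-values belonged to enzyme genes with more reads in the mutant hearts. In this list of 17 genes, 16 were in the table and 13 were tested, and 0 passed in either direction (edgeR, adjusted p under 0.05). Higher calls made up 0.105% and lower calls 0.0248% of all rows. At an unadjusted p under 0.05 there were 6 higher and 0 lower, where 6.49% and 4.38% of all rows were. Of the 13 tested, 8 had log2 fold changes above 0 and 5 below, the lowest being Cyp2s1 at -0.81. The groups did not overlap in 6, with the mutants higher, and in 3, with the mutants lower. Over all rows these shares were 22.3% and 22.4%. The list's median log2 fold change was 0.22, beside 0.0046 for all rows. With scaling by total counts it was -0.08, beside -0.28 for all rows. These counts and medians enter the rows Ugt1a6a, Ugt1a6b and Ugt1a7c singly, though they largely share reads. Entered as 1, they would leave Nedd9, at 0.03 with TMM scaling, as the middle gene of the list. Gsta1, a glutathione transferase gene, had 40 and 26 reads in the mutant hearts and 4 and 6 in the wild-type hearts. Its log2 fold change of 2.72 ± 0.60 had an adjusted p of 0.175 in edgeR, and its near-identical relatives may share reads. Xdh, the gene of xanthine dehydrogenase, was at 34.9 ± 2.32 CPM in the mutant hearts and 20.7 ± 0.387 CPM in the wild-type hearts (edgeR adjusted p = 0.279).

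The other 4 of these 6, named after their values were seen, were Ptgs2, which encodes an inducible cyclooxygenase, and the glucuronosyltransferase rows Ugt1a6a, Ugt1a6b and Ugt1a7c. Ugt1a6a had 40 and 67 reads in the mutant hearts and 16 and 24 in the wild-type hearts. The Ugt1a genes share their last exons, and the row of Ugt1a1 alone had 34 and 52 reads in the mutant hearts and 16 and 23 in the wild-type hearts. Most reads of the 3 rows therefore come from the shared part and amount to 1 observation. Ptgs2 had 23 and 14 reads in the mutant hearts and 8 and 5 in the wild-type hearts.

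No gene of the machinery around the receptor was called, where 0.13% of all rows were. Of 13 genes of the cytosolic complex and coregulators, 13 were tested and 0 passed, with a median of -0.16. Below an unadjusted p of 0.05 in edgeR there were 0 higher and 1 lower, where 6.49% and 4.38% of all rows were. The groups did not overlap in 1, with the mutants higher, and in 5, with the mutants lower. Over all rows these shares were 22.3% and 22.4%. The gene below an unadjusted p of 0.05 was the coactivator Ncoa1, at 14.0 ± 1.38 CPM in the mutant hearts and 21.3 ± 1.74 CPM in the wild-type hearts (edgeR adjusted p = 0.378). Its relative Ncoa2 was at 28.7 ± 5.15 CPM in the mutant hearts and 39.8 ± 2.46 CPM in the wild-type hearts (edgeR adjusted p = 0.505). Hsp90ab1, which encodes a cytosolic Hsp90, was at 601 ± 42.5 CPM in the mutant hearts and 586 ± 78.5 CPM in the wild-type hearts. Its groups overlapped.

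Of 13 further PAS family genes, 7 were tested and 0 passed, where 0.13% of all rows did. The median was 0.12. Below an unadjusted p of 0.05 in edgeR there were 1 higher and 0 lower, where 6.49% and 4.38% of all rows were. Arntl2, a clock relative of Arnt, had 18 and 22 reads in the mutant hearts and 6 and 5 in the wild-type hearts (edgeR adjusted p = 0.352). The hypoxia factor genes, which compete for Arnt, did not pass. Epas1 was at 139 ± 14.1 CPM in the mutant hearts and 183 ± 20.4 CPM in the wild-type hearts, and Hif1a at 47.4 ± 10.9 CPM in the mutant hearts and 43.6 ± 13.6 CPM in the wild-type hearts. Arnt2, with 8 and 5 reads in the mutant hearts and 10 and 4 in the wild-type hearts, was too low to test.

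Nqo1 is also a target of Nrf2. No gene of that pathway was called, and the sign of the list's median depended on the scaling. Of 29 tested, 0 passed, where 0.13% of all rows did. The median was 0.13, beside 0.0046 for all rows, and -0.15 with scaling by total counts, beside -0.28. Log2 fold changes lay above 0 in 19 and below 0 in 10, where 7991 of 16128 rows lay below 0. The list was chosen with earlier results of these data known, so nothing is read from its counts. Below an unadjusted p of 0.05 in edgeR there were 5 higher and 1 lower, where 6.49% and 4.38% of all rows were. The groups did not overlap in 10, with the mutants higher, and in 5, with the mutants lower. Over all rows these shares were 22.3% and 22.4%. Nfe2l2, which encodes Nrf2, was at 37.6 ± 1.09 CPM in the mutant hearts and 38.9 ± 0.0906 CPM in the wild-type hearts. Its inhibitor Keap1 was at 30.3 ± 0.901 CPM in the mutant hearts and 31.8 ± 7.78 CPM in the wild-type hearts. Hmox1, the heme oxygenase gene that Nrf2 induces, was at 5.68 ± 0.285 CPM in the mutant hearts and 5.09 ± 3.14 CPM in the wild-type hearts. The thioredoxin gene Txn1 was at 35.3 ± 0.846 CPM in the mutant hearts and 22.3 ± 4.80 CPM in the wild-type hearts (edgeR adjusted p = 0.369). Beside Txn1, the higher genes at an unadjusted p under 0.05 were Gsta4, Ftl1, Fth1 and Taldo1, named after their values were seen. Gstp1, a glutathione transferase gene with near-identical copies, was at 59.4 ± 4.18 CPM in the mutant hearts and 109 ± 29.0 CPM in the wild-type hearts (edgeR adjusted p = 0.282).

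Among 87 other cytochrome P450 rows, 36 had no read in any library and 17 were tested. None passed, where 0.13% of all rows did, and the median was 0.09. Below an unadjusted p of 0.05 in edgeR there were 1 higher and 0 lower, where 6.49% and 4.38% of all rows were. Cyp27a1, the sterol 27-hydroxylase gene, was at 11.8 ± 3.91 CPM in the mutant hearts and 6.41 ± 0.185 CPM in the wild-type hearts (edgeR adjusted p = 0.356). Cyp4b1 was at 10.6 ± 1.58 CPM in the mutant hearts and 14.6 ± 0.522 CPM in the wild-type hearts (edgeR adjusted p = 0.533). Of the 4 genes that pass electrons to these enzymes, 0 passed and the median was 0.27. The reductase gene Por was at 28.7 ± 4.02 CPM in the mutant hearts and 26.5 ± 8.30 CPM in the wild-type hearts. The smallest p of the 4 belonged to Cyb5r3, the cytochrome b5 reductase gene, and to the cytochrome b5 gene Cyb5a. Cyb5r3 was at 76.2 ± 13.5 CPM in the mutant hearts and 55.8 ± 12.9 CPM in the wild-type hearts, and Cyb5a at 56.9 ± 13.5 CPM in the mutant hearts and 42.6 ± 4.98 CPM in the wild-type hearts.

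The ADP-ribosyltransferase relatives of Tiparp and the tested genes of tryptophan catabolism did not pass either. Of 11 Parp genes tested, 0 passed, where 0.13% of all rows did. None had an unadjusted p under 0.05 in edgeR, and the median was 0.25. Parp16 was at 4.62 ± 0.134 CPM in the mutant hearts and 2.83 ± 0.658 CPM in the wild-type hearts, and Parp3 at 25.2 ± 0.760 CPM in the mutant hearts and 20.3 ± 1.83 CPM in the wild-type hearts. Of 11 genes of tryptophan catabolism, 4 were tested, 0 passed and none had an unadjusted p under 0.05. Tdo2, Ido1 and Ido2 were among those too low to test. All 4 tested genes had log2 fold changes below 0, with a median of -0.43. Il4i1, an amino acid oxidase gene of immune cells, was at 1.72 ± 0.930 CPM in the mutant hearts and 3.18 ± 0.274 CPM in the wild-type hearts, and the kynurenine aminotransferase gene Ccbl1 at 11.9 ± 0.467 CPM in the mutant hearts and 15.6 ± 3.74 CPM in the wild-type hearts. Over all 8 lists, 0 of 96 tested rows passed in edgeR, DESeq2 or limma-voom. Of all rows, 0.13%, 1.41% and 0.0868% passed in these tests, in that order. Below an unadjusted p of 0.05 in edgeR there were 13 higher and 2 lower, where 6.49% and 4.38% of all rows were. The 13 include the rows Ugt1a6a, Ugt1a6b and Ugt1a7c, which amount to 1 observation. The lists were chosen with earlier results of these data known, so nothing is read from this count. Without wild type 1, 19 of 101 passed, where 12.2% of all rows did, and without wild type 2, 16 of 102 passed, where 22% of all rows did. Scaling by total counts moved the median of all rows to -0.28 and those of the lists with it, so the 6 list medians that were above 0 lay below it there, still above the median of all rows.

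**Figure D4:**
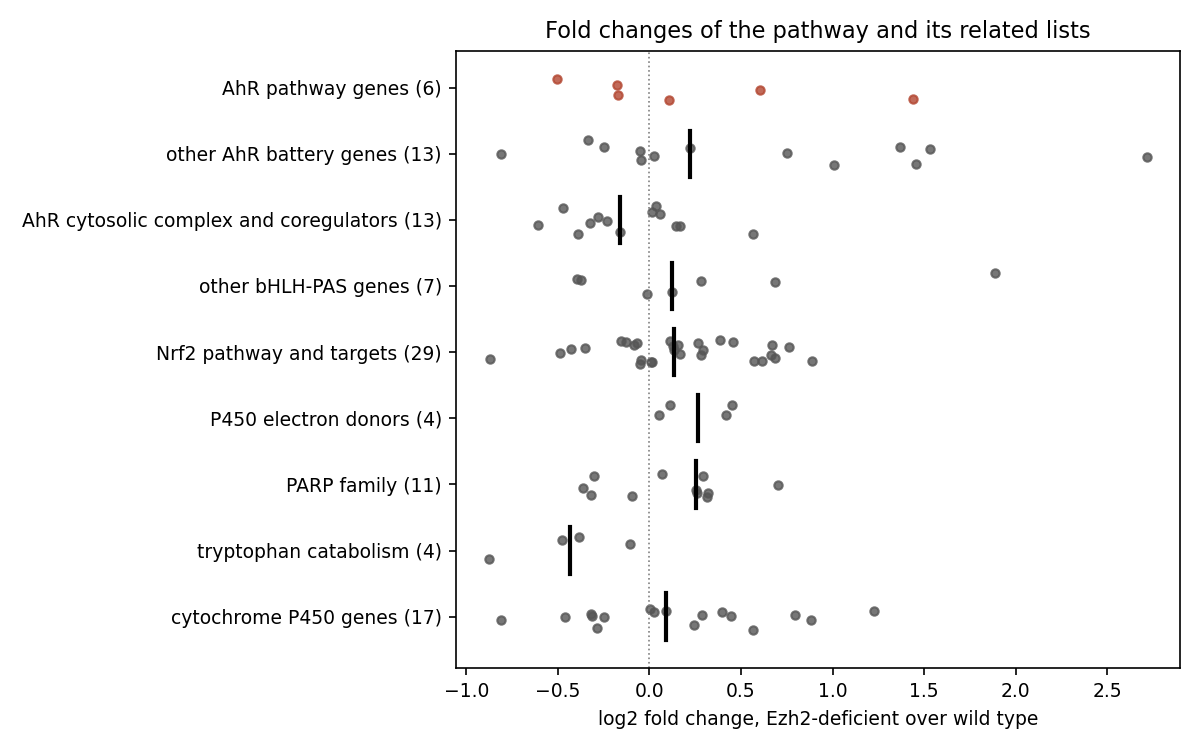
Fitted log2 fold change, Ezh2-deficient over wild type (horizontal axis), of each tested gene of the pathway and of 8 related lists, with the number of genes in brackets. Black bars are list medians, which run from -0.43 to 0.27; Cyp1a1 is left out because its fold is only a lower bound, and Gsta1 is the point farthest right at 2.72.

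The tissue label was checked against cell markers, whose levels also bear on the Cyp1 genes, since vascular cells and fibroblasts are known to express them. Cardiomyocyte markers summed to 51080 and 56990 CPM in the mutant hearts and 48170 and 42940 CPM in the wild-type hearts. The 8 endothelial markers summed to 558 and 693 CPM in the mutant hearts and 666 and 594 CPM in the wild-type hearts, and overlapped. The 7 fibroblast markers, at 759 and 860 CPM in the mutant hearts and 811 and 680 CPM in the wild-type hearts, overlapped too. The sums for smooth muscle and pericytes were 351 and 395 CPM in the mutant hearts and 340 and 359 CPM in the wild-type hearts. Macrophage markers stood at 169 and 144 CPM in the mutant hearts and 165 and 118 CPM in the wild-type hearts. Of these 5 sums, the cardiomyocyte sum alone was higher in both mutants than in both wild types. Its 8 single markers went both ways, with both mutants above both wild types in 3 and below both in 2. Both mutants exceeded both wild types in 2 of 8 endothelial and 2 of 7 fibroblast genes. They did so in 3 of 7 smooth muscle and pericyte and 1 of 7 macrophage genes, against 22.3% of all rows. Both mutants lay below both wild types in 1 endothelial, 0 fibroblast, 1 smooth muscle and pericyte and 1 macrophage gene. Over all rows that share was 22.4%. The part of these cell markers in the Cyp1 values was not tested.

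Markers of the atrium and of other tissues were read far below those of cardiomyocytes. The 3 atrial markers summed to 141 and 113 CPM in the mutant hearts and 55.3 and 5.48 CPM in the wild-type hearts. In each of these 3, both mutants exceeded both wild types, against 22.3% of all rows. Fast skeletal muscle markers stood at 179 and 3.25 CPM in the mutant hearts and 2.98 and 2.97 CPM in the wild-type hearts. The part of these markers in the Cyp1 values was not tested. Of organs rich in Cyp1 enzymes, the 4 hepatocyte markers had 36 and 13 reads in the mutant hearts and 0 and 5 in the wild-type hearts, with Alb at 0 in all libraries. The 4 lung epithelial markers had 1 and 0 reads in the mutant hearts and 2 and 1 in the wild-type hearts, with Scgb1a1 and Sftpa1 at 0. The 5 adipocyte markers had 20 and 26 reads in the mutant hearts and 22 and 1 in the wild-type hearts. In bulk tissue, fewer cells of a type and less RNA per cell cannot be told apart.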

How the data were processed

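Right-ventricle RNA of 4 hearts was sequenced from polyadenylated RNA after duplex-specific nuclease treatment, per the labels' protocols. TopHat 1.2.0, Cufflinks and build mm9 were used, per the submitters' processing notes; how reads were counted, with or without strand and on which annotation, is not given in the sources used. Raw read counts per gene row, as deposited, were analysed. The authors' CPM in the same table (reads over the library's reads in the table) was only checked against the counts. Start positions, counted from 0 in 37 of 37 mitochondrial rows checked, are printed counted from 1.

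The quasi-likelihood test of edgeR 4.0.16 in R 4.3.3 was run on the counts of all 4 libraries, after filterByExpr (16128 rows kept) and TMM scaling, without covariates and with two-sided p-values adjusted by Benjamini-Hochberg. The SE comes from the F statistic. P-values set the difference between groups against the spread between hearts within groups, which edgeR moderates across all tested rows. The fit was tested on simulated data. Alternatives were DESeq2 1.42.0, limma-voom (limma 3.58.1), other scalings, filters and thresholds, and leaving out each library. Intervals are 95% exact Poisson or binomial intervals and, like floors of 3 reads, cover counting error only. The 7 genes, the lists and the rule for named genes (members, genes set by name, and per list the 2 of smallest p) were chosen with earlier results of these data known. A gene that the rule names is not reported here. Gsta2 and Parp10 were not matched to a row; Cyb5a, Me1, Ido1, Ido2 and Plin1 were matched through synonyms. Promoter windows and names came from RefSeq (GRCm38.p6).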

Additional observations from a re-analysis of the deposited data

How the results depend on the processing

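The number of rows called over the whole table, 21, depended on the test and on single libraries. It was 227 with DESeq2, 156 with total counts alone, 317 with no filter on low counts, 9 without mitochondrial and X and Y rows, and 69 at an adjusted p under 0.1. Leaving out 1 library gave 63 to 3675. Of the related lists, 0 members were called, 1 with no filter (Gsta1) and 0 to 19 with 1 library left out; the cause was not tested. Each left-out fit rests on 1 heart in a group, which is assumed to vary like the other group.

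Fold changes of Arnt, Ahrr, Tiparp, Cyp1b1 and Nqo1 kept their sign in all 12 settings that gave a value. The groups of Ahrr, Tiparp, Cyp1b1 and Nqo1 do not overlap, so leaving out 1 library could hardly turn their sign. The other settings use the same 4 libraries, so a kept sign is no separate support. Cyp1a1, with no wild-type read, cannot turn, and it was filtered out at a minimum of 1 CPM. Ahr kept its sign in 9 of 12. Ranges on the log2 scale were -0.43 to 0.96 for Ahr, -0.45 to -0.04 for Arnt, -0.78 to -0.31 for Ahrr, -0.46 to -0.04 for Tiparp, 0.96 to 2.15 for Cyp1b1 and 0.32 to 0.65 for Nqo1. Cyp1a1 rests on 19 and 22 reads. No paired analysis was possible because the groups share only the replicate number 1.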
